A study of Mus musculus with 12 samples.

Results

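The 9 disease-associated microglia genes Apoe, Lpl, Cst7, Itgax, Spp1, Axl, Clec7a, Cd9 and Gpnmb were followed in ChIP-seq of brain microglia, an assay that sequences the DNA pulled down with an antibody to a chromatin protein. They were taken by gene name from 2 tables of peaks. The Rpb2 table, for a subunit of RNA polymerase II, held 26706 peaks, of which 10 were assigned to 2 of the 9 genes. The H3K27Ac table, for a histone acetylation found at active promoters and enhancers, held 55862 peaks, of which 53 were assigned to the genes, with at least 1 for each. The mice were 2-mo-old C57BL/6J littermates, either Cx3cr1+/+ (WT) or Cx3cr1eGFP/eGFP (KO), the latter with eGFP in place of an intact fractalkine receptor gene Cx3cr1 on both chromosomes. The labels name no treatment. CD11b+CD45lo cells of 3 mice of the same sex made up each sample, with 1 pool labelled F and 1 labelled M per genotype and mark, which gives n = 2 pools per genotype. The question asked here was which of the genes already carried acetylation or polymerase at 2 mo, and whether the genotypes differed there.

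Microglia at rest express a homeostatic program that includes P2ry12, Tmem119 and Cx3cr1 itself. Around amyloid plaques, dying neurons or damaged myelin, and with age, they lower that program and raise a set of genes for lipid handling, phagocytosis and lysosomes, which is known as the disease-associated state and depends in part on the receptor Trem2. Apoe carries lipid and Lpl, lipoprotein lipase, releases fatty acids from it. Cst7 encodes cystatin F, an inhibitor of lysosomal cysteine proteases, and Gpnmb a glycoprotein of lysosomes and the cell surface. Itgax encodes CD11c, an integrin subunit, and Cd9 a tetraspanin of the plasma membrane. Clec7a encodes dectin-1, a receptor for fungal glucans, Axl a receptor tyrosine kinase used in the uptake of dying cells, and Spp1 the secreted protein osteopontin. Acetylation of H3K27 and polymerase are separate measurements, since a promoter can be acetylated without a detected polymerase peak.

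The depth and labels of the libraries bear on every count. Totals ran from 10395804 to 44332626 reads. The Rpb2 pool labelled KO F was the deepest, and the Rpb2 pools of WT held 11662185 and 13653287 reads. The share of reads that fell in peaks was 15.9% for the H3K27Ac pool labelled WT F and 61.1 to 65.3% for the other 3 H3K27Ac pools. Relative to total reads, the former was the lowest pool at the start sites of Cd9, Itgax, Apoe, Cst7 and Lpl. It was not the lowest at Clec7a and Axl. The median H3K27Ac peak called only in WT held 20 reads in that pool and 0 in each of the other 3. Y-linked peaks held 136 Rpb2 reads in the pool labelled WT F and 0 in the pool labelled KO F, which goes against the sex label of the former. Just past the 3' end of the targeted gene Cx3cr1, the Rpb2 peak at chr9:120046323-120046820 held 421 and 441 reads in the WT pools labelled F and M and 193 and 130 in the KO pools. It was lower in KO at a log2 fold change of -2.86 ± 0.26 (SE, n = 2 pools per genotype, adjusted p = 0.00264 in edgeR). The other Rpb2 peaks of Cx3cr1 did not pass, with log2 fold changes from -1.4 to 1.14, and -0.23 ± 0.19 at its promoter (adjusted p = 0.65). Its H3K27Ac peak stood at -0.43 ± 0.42 (adjusted p = 0.889). All 6 microglia markers, among them P2ry12 and Tmem119, had peaks of both marks. Of other cell types, the 6 markers each of monocytes and neutrophils, of T, NK and B cells and of neurons had 0 Rpb2 peaks, while H3K27Ac peaks were assigned to 3, 2 and 3 of them. Of 6 markers of border-associated macrophages, 1 had an Rpb2 peak and 5 an H3K27Ac peak, with a summed Rpb2 level of 3.23 to 8.05 CPM (counts relative to total reads, per 1000000). Among 6 markers each, Rpb2 peaks were found for 1 of astrocytes (23.4 to 24.8 CPM over the 4 pools), 2 of oligodendrocytes (14.7 to 20.3 CPM) and 3 of endothelium (12.2 to 17.8 CPM), and H3K27Ac peaks for 4, 5 and 5. The microglia markers summed to 869 to 1180 Rpb2 CPM. In the 3 H3K27Ac pools other than WT F, they summed to 2620 to 2950 CPM. Astrocyte markers summed there to 286 to 313, oligodendrocyte markers to 219 to 226 and endothelial markers to 225 to 245. Markers of border-associated macrophages summed to 96.6 to 109, and those of the remaining types to 10.6 to 47.4. The H3K27Ac pool labelled WT F was lower for every type, with 515 CPM for microglia and 61.9 CPM for astrocytes. The part of other cells in the levels was not tested.

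The sequences below are shown because they lie under the results that follow. Those of Cd9 are its start site and an intronic peak, the 2 places where polymerase was called in both genotypes. Those of Itgax, Clec7a and Apoe are start sites that were acetylated in both genotypes and had no polymerase peak, and that of Gpnmb is a start site with no peak of either mark within 1000 bp. They come from RefSeq (GRCm38.p6, the same assembly as mm10), each start site as 250 bases before and 50 from the start on, read 5' to 3' on the strand of the gene. For Apoe and Clec7a, 1 of several RefSeq starts is given. Capitals mark a match to AGAGGAA, a core of the PU.1 motif (Apoe, Clec7a and the Cd9 intron), or TGANTCA, the AP-1 motif (Itgax, Gpnmb), on either strand.
Cd9 start site, chr6:125494711-125495010, minus strand: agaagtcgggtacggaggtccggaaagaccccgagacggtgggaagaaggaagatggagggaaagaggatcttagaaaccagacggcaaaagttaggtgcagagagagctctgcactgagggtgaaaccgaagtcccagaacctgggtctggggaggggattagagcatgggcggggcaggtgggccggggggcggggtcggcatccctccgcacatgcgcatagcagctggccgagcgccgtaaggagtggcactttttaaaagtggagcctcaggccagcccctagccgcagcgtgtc
Cd9 Rpb2 peak in intron 2, chr6:125471506-125471779, shown on the plus strand: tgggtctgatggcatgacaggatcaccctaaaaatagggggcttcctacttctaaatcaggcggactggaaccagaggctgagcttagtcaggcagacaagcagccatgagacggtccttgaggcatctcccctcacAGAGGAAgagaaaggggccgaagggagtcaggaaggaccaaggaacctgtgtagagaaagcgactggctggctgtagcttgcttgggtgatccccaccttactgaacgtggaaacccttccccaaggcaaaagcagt
Itgax start site, chr7:128129300-128129599, plus strand: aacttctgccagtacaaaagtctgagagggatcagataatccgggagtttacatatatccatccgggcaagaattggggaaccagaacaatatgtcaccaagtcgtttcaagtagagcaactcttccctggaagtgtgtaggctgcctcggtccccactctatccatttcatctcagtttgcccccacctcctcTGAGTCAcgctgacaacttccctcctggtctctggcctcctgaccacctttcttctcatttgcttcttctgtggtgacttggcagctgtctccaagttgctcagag
Clec7a start site, chr6:129472736-129473035, minus strand: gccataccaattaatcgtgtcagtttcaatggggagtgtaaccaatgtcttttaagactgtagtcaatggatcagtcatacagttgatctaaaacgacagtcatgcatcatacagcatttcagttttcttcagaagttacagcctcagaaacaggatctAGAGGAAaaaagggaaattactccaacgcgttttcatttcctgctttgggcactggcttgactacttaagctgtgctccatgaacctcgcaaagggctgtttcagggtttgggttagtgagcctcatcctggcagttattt
Apoe start site, chr7:19699139-19699438, minus strand: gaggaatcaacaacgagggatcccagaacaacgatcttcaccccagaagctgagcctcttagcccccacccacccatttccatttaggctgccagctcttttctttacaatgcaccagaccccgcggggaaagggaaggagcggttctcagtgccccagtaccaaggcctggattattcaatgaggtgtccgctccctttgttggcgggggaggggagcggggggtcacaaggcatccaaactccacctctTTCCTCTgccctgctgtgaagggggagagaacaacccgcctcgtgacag
Gpnmb start site, chr6:49036268-49036567, plus strand: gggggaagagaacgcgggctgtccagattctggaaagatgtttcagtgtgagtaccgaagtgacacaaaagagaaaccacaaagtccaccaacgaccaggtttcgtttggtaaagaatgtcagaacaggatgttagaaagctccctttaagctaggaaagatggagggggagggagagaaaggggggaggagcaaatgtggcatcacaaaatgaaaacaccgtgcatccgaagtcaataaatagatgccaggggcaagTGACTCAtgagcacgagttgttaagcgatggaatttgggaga
Of the 9 genes, 8 had a window in the RefSeq promoter table and were searched on both strands for the PU.1 core and the AP-1 motif spelled out above, for CACGTG, which is the E-box of Mitf and Tfe factors, and for the TATA letters TATAAA. A palindromic match was counted once. A gene counted if any of its windows held a match, and the 8 genes had 12 windows. Shares over all promoters are per window, so the figures are in different units. By window, matches were present in 4 (PU.1), 3 (AP-1), 3 (TATA) and 0 (E-box) of the 12. The 2 windows of Clec7a overlap, and the same PU.1 match was counted in both. The PU.1 core was present in windows of 2 of these 8 genes, Apoe and Clec7a, and in 10.4% of all 32851 promoters. The AP-1 motif was present in 3, Cst7, Itgax and Gpnmb, and in 7.81% of all promoters. The TATA letters were present in 3, in a window each of Apoe, Spp1 and Clec7a, and in 13.6% of all promoters. The E-box was present in 0 of the 8 and in 7.15% of all promoters. The Cd9 and Axl windows held none of the 4 motifs, and the Cd9 intron peak held 1 PU.1 core. These are matches of letters, not evidence of binding.

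Polymerase was found at the start site of 1 of the 9 genes, Cd9, while acetylation was found near the start site of 7. An Rpb2 peak was counted as near when its centre lay within 1000 bp of the TSS. For H3K27Ac the edge of the peak was used, a definition chosen after seeing the data, since the centres of broad peaks can lie farther away. By the centre, 5 genes had such an H3K27Ac peak, with Apoe and Cd9 left out. An Rpb2 peak of any position was assigned to 22.2% of the 9 genes, compared with all 24 homeostatic genes, 80.0% of 40 other disease-associated genes and 58.2% of the 17538 genes with a peak in either table. Near the TSS, the Rpb2 shares were 11.1% of the 9, 91.7% of the homeostatic, 70.0% of the other disease-associated and 47.6% of all genes. The H3K27Ac shares there were 77.8%, 83.3%, 87.5% and 61.1% in the same order. Of the 10718 genes with an H3K27Ac peak near the TSS, 70.5% also had an Rpb2 peak there. Among the 7 disease-associated genes that were acetylated there, 1 had one. A gene without a peak was not called at this depth, which does not show that polymerase was absent: an Rpb2 peak held a median of 31 and 37 reads in the WT pools, and the peaks in the lowest 5% held 2 or fewer in each.

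Counting what was called in WT mice, 4 of the 9 genes had an acetylated start site at 2 mo: Apoe, Cd9, Itgax and Clec7a. All 4 were also called in KO. The near-TSS peaks of Cst7, Axl and Lpl came from the KO list alone, and Spp1 and Gpnmb had none. Over all genes, 52.5% had an H3K27Ac peak near the TSS on the WT list and 58.7% on the KO list. By reads, a near-TSS peak of at least 10 reads was present for 6 of the 9 genes in the WT pool labelled F, 6 in the WT pool labelled M, 7 in the KO pool labelled F and 6 in the KO pool labelled M. Over all 17538 genes, the same counts were 10159, 9827, 10272 and 10227 in that order. At any position, all 9 genes had at least 1 H3K27Ac peak on the WT list, against 88.6% of all genes. On the KO list 8 had 1, against 76.4%, with Gpnmb as the exception. The 3 Gpnmb peaks held reads in the WT pool labelled F, which had 15.9% of its reads in peaks, and 0 in that labelled M. The Lpl peaks on the WT list held 37 and 0, 34 and 0, and 3 and 24 reads in the WT pools labelled F and M. For Apoe and Clec7a, the peak at the TSS was the only one on the WT list. An Rpb2 peak on the WT list was assigned to 2 of the 9 genes, Cd9 and Itgax, against 41.2% of all genes. That of Itgax lay between Itgam and Itgax, 9750 bp from the Itgax TSS, and does not show polymerase on Itgax. Near the TSS, here by the edge of the peak for Rpb2 as well, 1 of the 9 genes, Cd9, had an Rpb2 peak on the WT list. The share over all genes by that definition was 33.4%.

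Acetylation at the start sites spanned a wide range. At Cd9, the near-TSS peak held 2.71 and 11.5 H3K27Ac CPM per kb (counts per 1000000 total reads and per kb of peak) in the WT pools labelled F and M and 11.0 and 8.86 in the KO pools. At Clec7a, the values were 1.20, 8.35, 6.76 and 0.584 in the same order. At Itgax, they were 1.25, 3.12, 5.12 and 4.11. The WT pool labelled F was the lowest at Cd9 and Itgax, while at Clec7a the KO pool labelled M was lower still. Apoe had 0.847, 4.39, 4.45 and 3.40 CPM per kb. Cst7 had 0.632, 2.69, 3.61 and 3.59. The lowest levels were at Axl, with 1.04, 0.0, 2.62 and 0.386, and at Lpl, with 0.189, 1.92, 0.972 and 2.22. The order of genes below Cd9 was not the same in every pool, and the neighbours Apoe, Itgax and Cst7 lay within the spread of the pools.

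**Figure D1:**
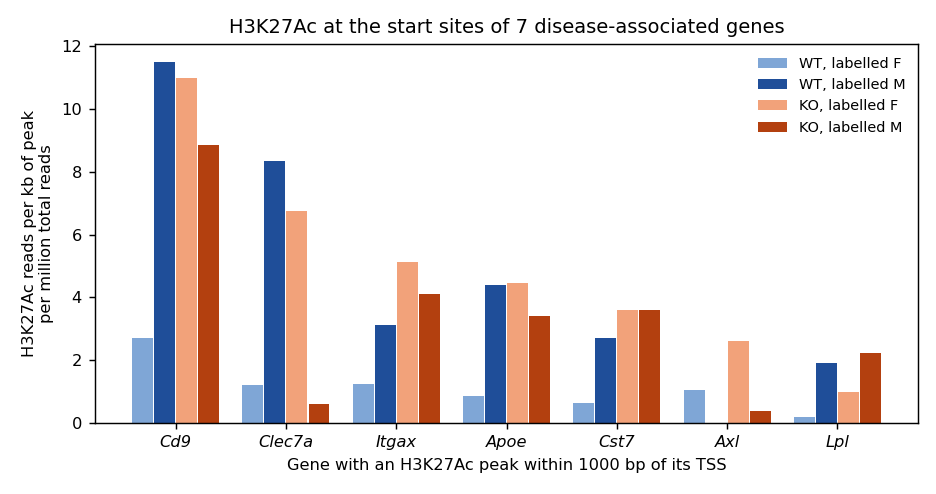
Bars give H3K27Ac CPM per kb of peak (y axis) for the 7 genes with a peak within 1000 bp of the TSS (x axis), 1 bar per pool (n = 2 pools per genotype, no error bars). Cd9 is highest in all 4 pools, Axl is at 0.0 in the WT pool labelled M, and the pool labelled WT F is low at most genes.

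Set among the 10718 genes with such a peak, the mean WT density of Cd9 lay at percentile 82.1 and that of Clec7a at 57.6, a value carried by the pool labelled M (65.1, against 19.0 in the pool labelled F). Apoe lay at 26.2, Itgax at 19.9, Cst7 at 13.4, Lpl at 6.8 and Axl at 2.3. The order depended on division by width: among the 9521 genes with a peak centre near the TSS, Itgax lay at percentile 62.2 by reads per peak but 21.4 by density. Clec7a lay at 13.6 and 35.4 by reads per peak in the WT pools labelled F and M, but at 20.2 and 69.0 by density. The median over the 7 genes was percentile 19.9 in WT and 19.2 in KO, compared with 56.4 and 51.3 for the other disease-associated genes with a peak and 94.0 and 87.7 for the homeostatic genes. Within single pools, the median of the 7 genes ran from 14.7 to 24.4. With all peaks of a gene summed per kb, the median of the 9 genes lay at 40.5 in WT and 41.8 in KO, the homeostatic genes at 91.2 and 88.2. These percentiles describe levels, and no test was run on them. Pools of sorted cells cannot tell a mark in fewer cells from less of the mark in each cell.

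Cd9 was the gene of the set with broad acetylation and with polymerase. Its 19 H3K27Ac peaks covered 54981 bp, percentile 99.6 among 16945 genes, where the median gene had 2338 bp. Of the 19 peaks, 10 overlapped the gene. The others were intergenic, up to 53295 bp from the TSS, and were named for Cd9 by nearest TSS alone. By list, 12 of the 19 peaks were on both lists, 2 on the WT list alone and 5 on the KO list alone. Itgax was next, with 11345 bp in 6 peaks (percentile 89.2), followed by Axl with 6160 bp in 8 peaks, Apoe with 4299 bp in 1 and Lpl with 4256 bp in 8. Cst7 had 3025 bp, Clec7a 2332 bp, Gpnmb 1503 bp and Spp1 1441 bp.

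Polymerase at Cd9 lay at the start site and in intron 2. The start-site peak (chr6:125494532-125494818, over the promoter sequence above) held 103, 116, 537 and 146 reads in the pools WT F, WT M, KO F and KO M. Scaled to reads in peaks with TMM factors in the fit of peaks near a TSS, these were 134 and 127 CPM in WT and 177 and 104 in KO. The KO pools lay on either side of the WT pools. The log2 fold change, KO over WT, was 0.12 ± 0.34 (SE, n = 2 pools per genotype, adjusted p = 0.945), and it turned to -0.31 without the KO pool labelled F. In density, this promoter ranked at percentile 68.0 of 8350 promoters with Rpb2 in WT and at 70.7 in KO, while the 22 homeostatic genes with such a peak had a median at 97.1 and 96.7. The intron peak (chr6:125471506-125471779) held 96, 107, 422 and 191 reads. In the fit of all peaks, which has a different scale, its level was 72.5 ± 2.97 CPM for WT and 75.6 ± 1.58 CPM for KO (SD over 2 pools each). On that scale the start-site peak stood at 78.2 ± 2.63 CPM for WT and 77.3 ± 28.8 CPM for KO. The log2 fold change of the intron peak was 0.06 ± 0.30 (adjusted p = 0.952), and its pools overlapped.

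The remaining Rpb2 peak of Cd9 was intergenic, 15392 bp upstream of its TSS (chr6:125509987-125510317), and was called only in KO. Its reads numbered 0 in each WT pool, 64 in the KO pool labelled F and 32 in that labelled M. The mean of the KO pools was 11.3-fold a floor of 3 reads over both WT pools, which covers counting error only. Since the peak was called in the KO pools alone, this direction is no independent measurement. The adjusted p of the peak was 0.198 in edgeR, so it did not pass the threshold of 0.05. It passed in DESeq2 (adjusted p = 0.0146), which called 3.83% of all Rpb2 peaks. With either WT pool left out, its fold change had no meaningful size, since the remaining WT pool held 0 reads. The peak lay inside an H3K27Ac peak of both lists (chr6:125508266-125513664), which held 188, 586, 1183 and 1132 reads, so the site was acetylated in WT as well. The log2 fold change of this H3K27Ac peak was 0.29 ± 0.29 (adjusted p = 0.893). It was 0.77 without the WT pool labelled M and -0.06 without that labelled F. All 3 Rpb2 peaks of Cd9 lay inside H3K27Ac peaks, compared with 76.6% of all Rpb2 peaks.

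**Figure D2:**
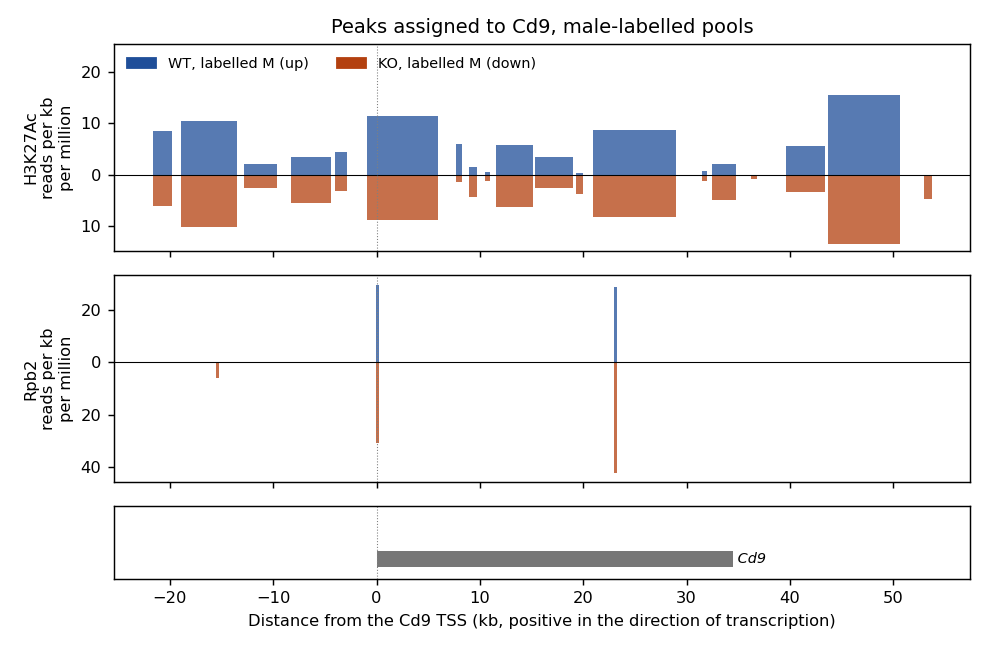
Peaks assigned to Cd9 by distance from its TSS in kb (x axis), with CPM per kb (y axis) of H3K27Ac (top) and Rpb2 (middle) in the pools labelled M, WT drawn upward and KO downward (1 pool each), and the gene as a grey bar. Peaks under 0.25 kb are drawn at that width. H3K27Ac runs from before the TSS past the end of the gene in both genotypes, Rpb2 stands at the TSS and in intron 2, and the upstream Rpb2 peak has a bar in KO only.

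The 3 H3K27Ac peaks of Cd9 with the most reads did not pass the threshold between genotypes. The peak over the TSS (chr6:125488878-125495747) held 393, 819, 1558 and 1258 reads, a log2 fold change of -0.14 ± 0.30 (adjusted p = 1.0). The intron 2 peak (chr6:125465856-125473882) held 385, 733, 1464 and 1366 reads, a log2 fold change of -0.03 ± 0.30 (adjusted p = 1.0). Downstream of the gene, the peak at chr6:125444164-125451081 held 296, 1118, 1897 and 1915 reads, a log2 fold change of 0.18 ± 0.30 (adjusted p = 0.988). After scaling, the WT and KO pools overlapped in all 3. Without the WT pool labelled M, the pool with few reads in peaks stands alone for WT, and the downstream peak was at 0.83. It was at -0.27 without the WT pool labelled F. The other Cd9 peaks had log2 fold changes from -2.13 to 3.0, and 0 of the 19 passed.

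The 7 Rpb2 peaks named for Itgax all lay upstream of its TSS at chr7:128129547, and none lay in the gene. Of these, 5 overlapped Itgam, which encodes CD11b, the surface marker used for the sort, and 2 lay between Itgam and Itgax, 9253 and 9750 bp from the Itgax TSS. The table names a peak by the nearest TSS, so these rows do not show polymerase on Itgax. The peak of most reads in WT, chr7:128119624-128120012, on the WT list alone, held 38, 71, 130 and 60 reads, a log2 fold change of -0.70 ± 0.48 (adjusted p = 0.582). In the last exon of Itgam, chr7:128117457-128117819 held 17, 14, 144 and 54 reads, a log2 fold change of 1.08 ± 0.63 (adjusted p = 0.512). In intron 16 of Itgam, chr7:128111333-128111718 held 0, 18, 142 and 26 reads, a log2 fold change of 1.57 ± 1.10 (adjusted p = 0.588). The scaled pools of the genotypes lay apart in the first 2 and overlapped in the last. The last, and the peaks at chr7:128104707-128104912 and chr7:128100804-128101025, each had 0 reads in 1 WT pool. Without that pool, their log2 fold changes were 0.61, 0.3 and 0.76.

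Acetylation, in contrast, was found on Itgax itself. The peak over its TSS (chr7:128126602-128131294, the site of the sequence above) held 124, 152, 493 and 399 reads. Scaled to reads in peaks, this was 29.7 ± 7.59 CPM for WT and 34.8 ± 3.84 CPM for KO (SD over 2 pools each). The log2 fold change was 0.24 ± 0.32 (adjusted p = 0.964). The neighbouring peak in intron 7 (chr7:128131678-128135204) held 158, 340, 717 and 602 reads, a log2 fold change of 0.05 ± 0.30 (adjusted p = 1.0). In both peaks the scaled pools of the genotypes overlapped. Another H3K27Ac peak in the gene, 9355 bp past the TSS, was on the KO list alone and held 4, 0, 23 and 47 reads. The other 3 rows lay in Itgam. In its intron 24, the peak of both lists at chr7:128114954-128116009 held 46, 34, 87 and 106 reads, a log2 fold change of -0.27 ± 0.67 (adjusted p = 1.0). In its intron 14, the peak at chr7:128104880-128105658, called only in WT, held 44, 0, 10 and 6 reads (adjusted p = 0.811). Its log2 fold change was -3.28 ± 2.08, and -4.29 without the WT pool labelled M. Without the pool labelled F, WT held 0 reads there. The last, in the last exon (chr7:128116949-128117737, also called only in WT), held 8, 77, 1 and 4 reads, with the reads of WT carried by the pool labelled M. This row had the lowest p of the 53 (log2 fold change -5.11 ± 1.98, adjusted p = 0.811). It passed in DESeq2 (adjusted p = 0.0372), which called 0.43% of all H3K27Ac peaks. Its log2 fold change was -5.89 without the WT pool labelled F and -3.43 without that labelled M. The rows in intron 14 and the last exon were called only in WT, so their direction is no independent measurement. Of the 7 Rpb2 rows, 2 overlapped an H3K27Ac peak.

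**Figure D3:**
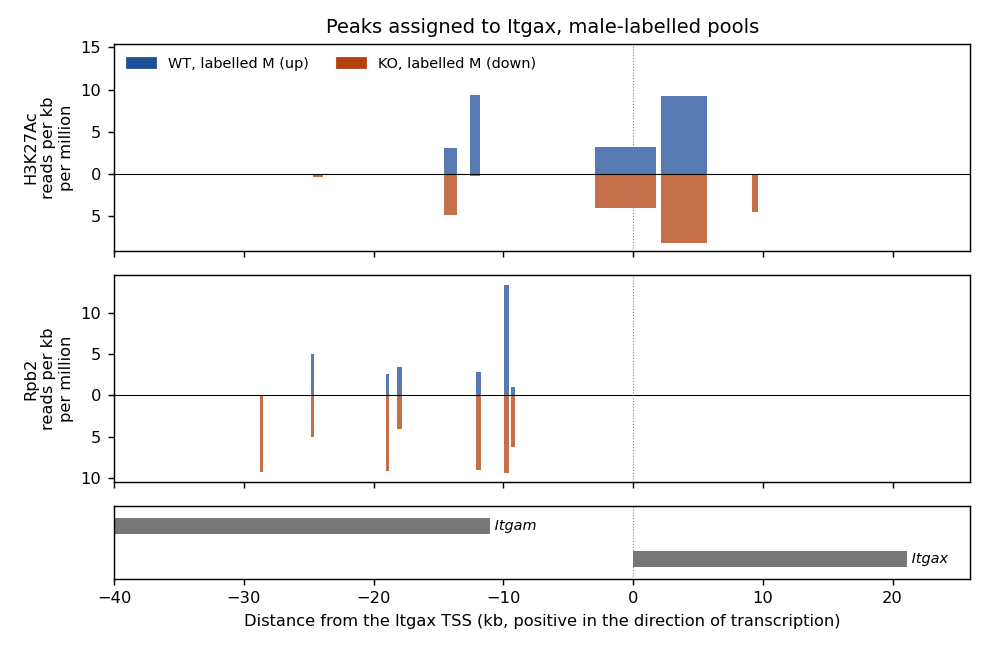
Peaks assigned to Itgax by distance from its TSS in kb (x axis), with CPM per kb (y axis) of H3K27Ac (top) and Rpb2 (middle) in the pools labelled M, WT upward and KO downward (1 pool each), and the genes Itgam and Itgax as grey bars (Itgam is cut at the left edge). Peaks under 0.25 kb are drawn at that width. The 7 Rpb2 peaks stop 9253 bp before the Itgax TSS, whereas H3K27Ac covers the TSS in both genotypes.

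Among the lipid genes, Apoe had 1 H3K27Ac peak and no Rpb2 peak. The H3K27Ac peak, chr7:19698461-19702759, covered the Apoe TSS at chr7:19699188 and ran upstream into the end of Tomm40, the neighbouring gene, so part of its reads lie on Tomm40. It held 77, 196, 393 and 302 reads. After scaling, the level was 26.5 ± 6.77 CPM for WT and 27.1 ± 3.98 CPM for KO (SD over 2 pools each). The log2 fold change was 0.02 ± 0.34 (adjusted p = 1.0), and the KO pools lay between the WT pools. Lpl had 8 H3K27Ac peaks, of which 3 were called only in WT, 5 only in KO and 0 in both genotypes. None was wider than 629 bp. In intron 1, the peak 926 bp past the TSS held 2, 10, 10 and 23 reads and the peak 1993 bp past it held 5, 21, 29 and 0. Of the intergenic peaks with most reads, the one at chr8:68926420-68927040 held 7, 0, 48 and 68 reads and that at chr8:68953871-68954371 held 6, 5, 89 and 22. Scaled, both lay higher in the KO pools, with log2 fold changes of 2.23 ± 2.52 (adjusted p = 0.923) and 1.77 ± 2.49 (adjusted p = 0.966). Both were called only in KO, so this direction is no independent measurement.

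The lysosomal genes Cst7 and Gpnmb differed in how they were called. The Cst7 peak over the TSS (chr2:150569641-150570463), on the KO list alone, held 11, 23, 61 and 61 reads. Its scaled level was 3.39 ± 0.402 CPM for WT and 4.77 ± 0.185 CPM for KO (SD over 2 pools each). The KO pools lay above the WT pools, and the log2 fold change was 0.49 ± 1.45 (adjusted p = 1.0). As the peak was called only in KO, this direction is no independent measurement. A Cst7 peak of both lists 3385 bp upstream held 42, 60, 74 and 134 reads, a log2 fold change of -0.38 ± 0.59 (adjusted p = 0.978), and 1 in intron 1, on the WT list alone, held 12, 0, 0 and 12. Gpnmb had 3 intergenic peaks upstream of its TSS and none in the gene, all from the WT list alone. Their reads came from the WT pool labelled F, with 22, 28 and 18 reads there and 0 in each in the WT pool labelled M. The KO pools held 0 reads at 2 of them and 0 and 14 at the last. The one of most reads, chr6:49025975-49026475, had an adjusted p of 0.811 in edgeR. The KO pools held 0 reads there, so its fold change has no meaningful size. Over the whole table, the median peak of the WT list alone held 20 reads in the pool labelled WT F and 0 in each of the other 3 pools, so the Gpnmb rows share this pattern with their class of peaks.

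Among the receptors, Clec7a had 4 H3K27Ac peaks. The one at its TSS (chr6:129472442-129473270, both lists, over the sequence above) held 21, 72, 115 and 10 reads, a log2 fold change of -0.88 ± 0.83 (adjusted p = 0.881). Scaled, the WT pools labelled F and M stood at 5.93 and 11.5 CPM and the KO pools at 8.74, within the WT range, and at 0.803, below it. Its other 3 peaks came from the KO list alone and held 9, 0, 21 and 34 reads, 0, 11, 46 and 49 reads, and 6, 0, 13 and 48 reads. Axl had 8 H3K27Ac peaks, 2 on both lists and 6 on the KO list alone. The one of most reads, in intron 6 (chr7:25775498-25777508), held 47, 169, 182 and 212 reads, a log2 fold change of -0.40 ± 0.40 (adjusted p = 0.901), and the one in intron 4 (chr7:25781237-25782379) held 24, 33, 49 and 55, a log2 fold change of -0.56 ± 1.11 (adjusted p = 0.999). The pools overlapped in the former and lay apart, lower in KO, in the latter. Near the Axl TSS, the peak 264 bp past it held 11, 0, 27 and 4 reads. An exonic peak 1774 bp past it, on the KO list alone, held 0, 0, 26 and 31 reads (adjusted p = 0.847 in edgeR). The mean of its KO pools was 7.28-fold a floor of 3 reads over both WT pools, which covers counting error only. Since this peak was called in the KO pools alone, its direction is no independent measurement. A peak 6239 bp upstream held 19, 0, 13 and 44 reads.

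For the secreted protein, Spp1 had 1 H3K27Ac peak and no Rpb2 peak. The peak lay 8961 bp upstream of its TSS (chr5:104425430-104426870, intergenic, both lists) and held 40, 45, 131 and 92 reads. The scaled level was 9.25 ± 2.91 CPM for WT and 8.67 ± 1.82 CPM for KO (SD over 2 pools each). The log2 fold change was -0.08 ± 0.62 (adjusted p = 1.0), and the pools overlapped.

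Between genotypes, none of the 10 Rpb2 and 53 H3K27Ac rows of the 9 genes passed an adjusted p of 0.05. For Rpb2, 0 of 10 rows passed in edgeR, compared with 2 of all 26706 peaks (0.00749%), and with 0 of 10125 (0%) in the fit of peaks near a TSS, where the 1 Cd9 row entered. At an unadjusted p under 0.05, 1 of the 10 was higher in KO and 0 lower, against 6.12% and 6.06% of all peaks. The Cd9 row near a TSS was in neither group there, against 4.42% higher and 6.13% lower of all. DESeq2 called 1 of the 10 and 3.83% of all peaks, and in the fit near a TSS it did not call the Cd9 row and called 0.198% of all. For H3K27Ac, 0 of 53 rows passed, compared with 13 of 55798 peaks tested (0.0233%). At an unadjusted p under 0.05, 0 of the 53 were higher and 1 lower, against 1.35% and 3.6% of all peaks, and DESeq2 called 1 of the 53 and 0.43% of all. Scaled pools of the genotypes lay apart with KO higher in 5 of the 10 Rpb2 rows and KO lower in 1, against 25.7% and 21.7% of all peaks. The same counts were 7 and 4 of 53 for H3K27Ac, against 14.3% and 13% of all peaks. An exact permutation test of 2 pools against 2 cannot give a two-sided p below 0.333, and the p-values given are those of edgeR fitted to the whole table, which measure the spread between pools.

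The direction of the Rpb2 rows went with the list a peak came from. Over the 10 rows, 8 log2 fold changes were above 0 and the median was 1.14, beside 0.04 over all peaks. Of these rows, 7 came from the KO list alone, and all 7 were above 0, with a median of 1.25. Of all 14148 peaks of the KO list alone, 75.8% were above 0, with a median of 0.51. The 2 rows of both lists had a median of 0.03. The list is set by peak calling on the same reads, so these directions are no independent measurement, and the KO pool labelled F held the most reads of any Rpb2 pool. With loess offsets in place of TMM, which take out a trend with mean read number, the median of the 10 rows was 0.19. Over the 53 H3K27Ac rows the median was -0.21, the same as over all peaks (-0.21), with 22 rows above 0 and 31 below. It turned to 0.63 when reads were scaled by total library reads, where all peaks moved to 0.53, to 0.03 with loess offsets (all peaks -0.08), and to 0.51 without the pool labelled WT F (all peaks 0.14). The 21 rows of both lists had a median of -0.14.

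**Figure D4:**
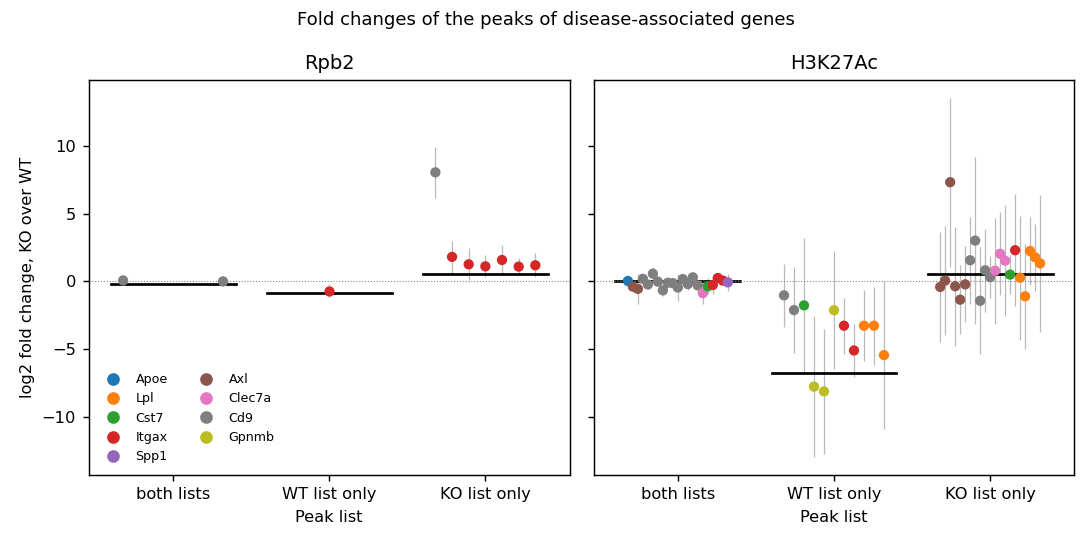
Log2 fold change of KO over WT (y axis) for the 10 Rpb2 rows (left) and 53 H3K27Ac rows (right) of the 9 genes by the list the peak came from (x axis), with SE as grey bars and the median of all peaks of that list as a black line (n = 2 pools per genotype). Rows of both lists lie near 0, and rows of a single list lie on the side of the genotype that called them in most cases. A point whose pools of 1 genotype are all at 0 has no meaningful size.

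Of the 40 other disease-associated genes, 0 of 33 Rpb2 peaks near a TSS, 0 of 99 Rpb2 peaks and 0 of 205 H3K27Ac peaks passed in edgeR, with medians of 0.08, -0.03 and 0.03. At an unadjusted p under 0.05, 2 of the 33 were higher in KO and 1 lower, 7 of the 99 were higher and 3 lower, and 1 of the 205 was higher and 4 were lower. The lowest p near a TSS belonged to Ctsd, which encodes the lysosomal protease cathepsin D, at a peak of the KO list alone with 6, 25, 203 and 130 Rpb2 reads (adjusted p = 0.208), followed by a second Ctsd peak with 294, 358, 1588 and 755 reads (adjusted p = 0.39) and by Cadm1, an adhesion molecule, with 74, 186, 294 and 92 (adjusted p = 0.423). Among all Rpb2 peaks, Hexa, B2m and Ctsd had the lowest p, with adjusted p-values of 0.211 to 0.265. Among H3K27Ac peaks these were Npc2, Cadm1 and Ctsb, each on the WT list alone and each with an adjusted p of 0.811. Of the 24 homeostatic genes, 0 of 37 peaks near a TSS, 1 of 395 Rpb2 peaks and 0 of 226 H3K27Ac peaks passed; the 1 was the Cx3cr1 peak given above.

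No member had a promoter peak of both marks by the centre of the peak, so genes with a similar pattern could be sought only with peaks whose edge lay within 1000 bp. Cd9 was then the one gene to compare. Over the 8 libraries, the nearest of 7590 genes were Gtpbp4 and Mtg1, with a mean absolute difference of 0.136 and 0.137 in log2 density (CPM per kb, with 0.1 added).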

How the data were processed

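ChIP-seq for Rpb2 and H3K27Ac was analysed in 8 of the 12 samples, and the 4 input samples were not used here. The authors aligned single-end reads of 51 nt to mm10 (Bowtie 2, unique hits), found peaks in HOMER, filtered them by reproducibility between pools (irreproducible discovery rate) and joined the peaks of WT and KO in 1 table per mark. They deposited the count of reads in each peak for each library, not normalized, with a normalization factor of 1, beside HOMER's gene names by nearest TSS. Columns of per-sample values left unused numbered 0.

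The 9 genes and all lists were chosen with earlier results of these data known. All tested peaks entered each fit in edgeR 4.0.16 (R 4.3.3, quasi-likelihood test, TMM, Benjamini-Hochberg adjustment, threshold 0.05), with genotype as the sole term, where the mean of either genotype reached 4 reads. Rpb2 peaks within 1000 bp of a TSS were also fitted alone, after the study's methods. Levels are CPM of total reads per kb of peak. A gene with over 5 rows had its rows near the TSS and the 3 of most reads given in full; other rows named were chosen after their values were seen. Fold changes were given for rows of at least 30 reads on average and for rows past the threshold in an alternative, a limit also set after seeing the data. Of the other lists, genes past the threshold and those of the 3 lowest p-values were named. Overlaps required 1 bp.

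Alternatives were 3 other scalings (total library reads, reads in tested peaks, loess), DESeq2 1.42.0 (which used a local dispersion trend where its parametric curve could not be fitted), 2 other filters (none, or 10 reads in every library), a block by sex label, each library left out, other choices of peaks and, added after seeing the data, the edge of a peak as its distance from the TSS and counts by library. The main edgeR fits were also run on simulated data as a check of the code, with a spread set beforehand. That check does not show power or error rates at the spread of these pools. The common dispersion fitted here, a measure of spread beyond counting error, was 0.0894 for Rpb2 near a TSS. It was 0.133 for all Rpb2 peaks and 1.28 for H3K27Ac. Totals were 10395804 to 44332626 reads, and a floor of 3 reads was 0.0677 to 0.289 CPM. Floors cover counting error only. Gene positions came from GENCODE and sequences from RefSeq for GRCm38. Python 3.11.15 with pandas 2.3.3, NumPy 2.4.6 and matplotlib 3.10.9 was used.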

Additional observations from a re-analysis of the deposited data

Results flagged for a closer look

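The pair of pools labelled F and the pair labelled M moved in opposite directions in 2 results, each pair being 1 pool per genotype, so the difference was not tested. At the Cd9 start site, the log2 ratio of Rpb2 reads, KO over WT as a share of reads in peaks with 2 reads added, was 0.31 in the pair labelled F and -0.36 in the pair labelled M. The median of the same ratio over the 53 H3K27Ac rows of the 9 genes was -0.68 in the pair labelled F and 0.22 in the pair labelled M. The Rpb2 pool labelled WT F held Y-linked reads, and the H3K27Ac pool labelled WT F had 15.9% of its reads in peaks. Their part in these differences was not tested.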

How the results depend on the processing

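Without a filter on reads, the counts of calls and the medians were as reported. Scaling by total library reads lowered the H3K27Ac calls over all peaks from 13 to 0, moved the median of the 53 rows to 0.63 and that of the 10 Rpb2 rows to 1.45, and turned H3K27Ac fold changes (log2) to 0.06 and 0.24 (Axl introns 6 and 4), 0.63 and 0.49 (Cd9 intron 2 and TSS), 0.39 (Cst7 upstream), 0.79 (Itgax, the row in intron 24 of Itgam) and 0.81 (Spp1). It moved the median of all H3K27Ac peaks from -0.21 to 0.53, and that of all Rpb2 peaks from 0.04 to 0.37. For the Cd9 start site among all Rpb2 peaks (-0.01 as fitted there), total reads gave 0.28, reads in tested peaks 0.05, and loess offsets and the filter of 10 reads in every library 0.12 each.

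Reads in tested peaks without TMM gave a median of 1.19 for the Rpb2 rows and -0.02 for Apoe H3K27Ac. Loess offsets gave 3 Rpb2 calls near a TSS and 15 over all peaks, a median of 0.19, and fold changes of -0.08 (Apoe), -0.07 (Itgax intron 7 H3K27Ac) and, at the Rpb2 rows chr7:128100804-128101025 and chr7:128104707-128104912, -0.44 and -0.79. DESeq2 gave 20, 1022 and 240 calls near a TSS, over all Rpb2 and over all H3K27Ac peaks, 1 call among the 10 and 1 among the 53 rows, -0.04 at Apoe and -0.01 at Itgax intron 7. With 10 reads in every library the calls were 7, 30 and 1, the median of the 4 Rpb2 rows left was 0.16, and Apoe and Itgax intron 7 stood at -0.04 and -0.01. H3K27Ac peaks near a TSS alone and peaks of both lists alone gave 0 calls each, the latter with -0.02 at Apoe.

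The sex labels as a replicate block gave 24 Rpb2 calls near a TSS and 4 over all peaks, none at the 9 genes, and a median of 1.23. Across peaks, deviations of the pools labelled F from their genotype means were correlated between WT and KO. The values were -0.00157 for Rpb2 near a TSS, -0.0109 for all Rpb2 peaks and -0.0142 for H3K27Ac. The labels were not taken to pair the pools. Y-linked reads in the Rpb2 pool labelled WT F, and 15.9% of reads in peaks in that of H3K27Ac, limit this check. An effect of sex was not tested.

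Leaving out 1 pool, which leaves a lone pool assumed to vary like the others, gave 14 to 237 Rpb2 calls near a TSS, 0 to 2210 over all Rpb2 peaks and 2 to 8157 over all H3K27Ac peaks (8157 without WT M), with 0 to 3 and 0 to 4 calls at the 9 genes. Their medians ran from 0.79 to 1.33 (Rpb2) and from -0.14 to 0.51 (H3K27Ac). Sign changed at the Cd9 start site for Rpb2 (-0.31 to 0.44 near a TSS, -0.46 to 0.32 over all peaks) and for H3K27Ac at Cst7 upstream (-0.92 to 0.01), Spp1 (-0.38 to 0.26), Cd9 downstream (-0.27 to 0.83), intron 2 (-0.09 to 0.02) and chr6:125508266-125513664 (-0.06 to 0.77), Itgax TSS (-0.01 to 0.51), intron 7 (-0.09 to 0.20) and the Itgam introns 14 (-4.29 to 5.75) and 24 (-0.78 to 0.47), Apoe (-0.22 to 0.31) and Axl intron 6 (-0.81 to 0.22). Of the 3 Rpb2 and 28 H3K27Ac rows with under 30 reads on average, 2 and 15 changed sign in an alternative.

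The percentile of the Cd9 promoter in Rpb2, 68.0 by density, was 72.3 by reads per peak and 65.6 over all its peaks. With Itgax at 7.2 over its peaks, the median of both genes was 36.4. The median percentile of the genes in H3K27Ac was 14.3 by the centre of the peak, 40.5 over all peaks of a gene, 19.9 by the edge and, leaving out a WT pool, 15.6 to 19.1. For single genes in H3K27Ac, the percentile over all peaks of the gene was 20.9 for Lpl, 34.7 for Cst7, 59.5 for Itgax and 41.5 for Axl. By reads per peak it was 62.2 for Itgax. Without the WT pool labelled M it was 15.6 for Axl and 20.2 for Clec7a. Of the other values, 42 counts and medians of calls and fold changes stayed within the limits set, 264 fold changes kept direction and call, and 12 passed the threshold in an alternative alone. The cause of these changes was not tested. Rpb2 peaks of few reads limit what 2 pools per genotype can show.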
